A study of Bos taurus with 40 samples.

Results

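The comparison described here follows the bovine endometrium of the ipsilateral uterine horn, as the labels name that horn, from day 13 to day 16 after estrus. It rests on 10 of the 40 libraries of the series, chosen by their labels for horn and day: 5 of day 13 (tags 4-1314, 5-140, 5-167, 6-203 and 8-275) and 5 of day 16 (tags 2-068, 3-155, 5-137, 7-107 and 8-245). The study collected endometrium from both horns of synchronized heifers on day 5, 7, 13 or 16, with 5 heifers a day and a separate set of heifers for each day. The design text counts the days after estrus while the sample labels call them days of pregnancy, and the sources used here do not say if the uteri held embryos. Nor do they give breed, age or any treatment beyond the synchronization. Day 16 library 5-137 was known from earlier results to lie between the early and the late days, so every comparison was made with all 10 libraries and again without it, 5 against 4. Neither the cause of this position nor the day label of 5-137 was tested. Day 16 values over 10 libraries thus include a library that is day 16 by its label alone. Because 5-137 was singled out with its values known, the comparison without it is not independent of the outcome.

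The endometrium lines the uterus and consists of a surface epithelium, glands and a stroma with vessels. Under progesterone its glands and epithelium secrete the proteins, sugars and lipids that an elongating conceptus lives on before it attaches. If no conceptus signals, the epithelium regains the oxytocin receptor toward the end of this window and releases pulses of prostaglandin F that end the life of the corpus luteum. A conceptus of a ruminant instead secretes interferon tau, which holds that receptor down and switches on interferon-stimulated genes. Levels are given as counts-per-million (CPM) after scaling of library sizes. Fold changes are day 16 over day 13 from edgeR's quasi-likelihood test, on a log2 scale with their standard error (SE), and a gene passed at a Benjamini-Hochberg adjusted p below 0.05 over all genes tested.

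Total counts ran from 27.03 M to 33.53 M in the 10 libraries. Epithelial and stromal markers were abundant in every one of them: the summed level of 22 epithelial genes ran from 2435 to 3406 CPM on day 13 and from 2233 to 3208 CPM on day 16, and that of 15 stromal fibroblast genes from 12430 to 16500 and from 11130 to 16560 CPM. Of 19 markers of a conceptus, 17 were in the table, and their summed level was 20.8 to 37.7 CPM on day 13 and 26.2 to 46.1 CPM on day 16. PAG11, PAG12, TKDP1, TKDP2, TKDP4, CSH2 and PRP1 had no read in any of the 10 libraries, and PAG2 reached at most 0.0693 CPM. The 6 members tested included IFNT2, an interferon tau gene, at 0.814 to 2.05 CPM on day 13 and 1.18 to 2.51 CPM on day 16 (log2 fold change 0.33, adjusted p = 0.721), and SSLP1, the most abundant member in each of the 10 libraries, at 8.32 to 22.4 and 15.7 to 35.8 CPM (0.74, adjusted p = 0.329). None of the 6 passed, and 4 had a positive and 2 a negative log2 fold change. How reads shared with similar interferon genes were counted is not stated, so the level of IFNT2 is uncertain. A lower level in bulk tissue can mean fewer cells of a type or less RNA per cell, and these cannot be told apart here. The share of counts on the mitochondrial genome was 0.473%, 0.506%, 0.497%, 0.526% and 0.448% on day 13 and 0.217%, 0.179%, 0.224%, 0.184% and 0.218% on day 16 (means 0.49% ± 0.0302 and 0.205% ± 0.0214, SD, n = 5 each). The days did not overlap in this share, 5-137 included. An exact permutation test gave a two-sided p = 0.00794, the smallest that 5 against 5 can give, and p = 0.0159 without 5-137. The share of 5-137 was close to the other day 16 libraries but also within the ipsilateral day 7 range of 0.124% to 0.399%. For 5-137 it thus does not tell these days apart. The part of the shift from day 13 to day 16 in the gene results was not tested.

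Few genes passed when all 10 libraries were used. Of 18745 genes tested, 12 rose (0.064%) and 10 fell (0.0533%), while 1120 (5.97%) were higher and 1188 (6.34%) lower at an unadjusted p below 0.05. Without 5-137, 48 of 18961 genes rose (0.253%) and 74 fell (0.39%), with 1251 (6.6%) and 1368 (7.21%) at the unadjusted level. All 22 genes that passed with 10 libraries were among the 122 that passed without 5-137, and they made up 18% of the latter. For these 122 genes the median absolute log2 fold change was 1.24 without 5-137 and 0.98 with it (121 tested there). Their median SE was 0.19 against 0.25. The genes were chosen by passing without 5-137, which by itself favours large changes and small SE in that fit. The same medians over all genes tested are not given. The CPM of the days did not overlap for any of the 122 genes over the 9 libraries, nor for any of the 22 over the 10. Among all genes tested that held for 5.83% over 9 libraries and 3.05% over 10. DESeq2 passed 600 genes with 10 libraries, including all 22, and 883 without 5-137, including 121 of the 122. limma-voom passed 14 and 75.

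Calls also depended on single libraries other than 5-137. With 10 libraries, the 22 calls became 14 without day 13 library 4-1314, 6 without 5-140 and 12 without 6-203, and 6, 9 and 6 without day 16 libraries 3-155, 7-107 and 8-245. Without 5-137, the 122 calls became 70, 53, 60 and 60 when day 13 libraries 4-1314, 5-140, 6-203 and 8-275 were left out in turn, and 18, 74 and 34 without 3-155, 7-107 and 8-245. These fits compare fewer samples. Of the 20 called genes with a symbol, 4 passed with 10 libraries and in each of the 10 fits that left 1 of them out: NOTCH4, SH2D3C, SCN11A and ATP1B2.

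Among the genes that rose with all 10 libraries, CRYGS, a crystallin first known from the eye lens, changed most. Its level was 0.375, 1.65, 0.485, 0.455 and 0.611 CPM in the day 13 libraries and 15.2, 21.1, 6.84, 5.54 and 14.8 CPM in those of day 16, in the order of tags given above. Every day 16 library, 5-137 included, stood above every day 13 library, and the log2 fold change was 4.13 ± 0.51 (SE, adjusted p = 0.0191), or 17.5-fold. It passed in 9 of 10 fits that left out 1 library. On days 5 and 7 its median level was 0.887 and 0.471 CPM, so the high level was seen on day 16 alone among the 4 ipsilateral groups.

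LAMA3, a laminin chain of epithelial basement membranes, was at 17.6, 22.5, 14.9, 29.6 and 19.6 CPM on day 13 and at 33.8, 70.3, 80.7, 93 and 79.1 CPM on day 16 (log2 fold change 1.77 ± 0.26, adjusted p = 0.0355). Library 2-068 was the lowest of day 16, and 5-137 was among the highest. ITGB3, an integrin beta subunit, was at 58, 50.7, 56.6, 48.5 and 56.8 CPM on day 13 and at 109.3, 112.5, 70.55, 125.4 and 138.4 CPM on day 16 (1.04 ± 0.15, adjusted p = 0.0355). Here 5-137 was the lowest day 16 library, and without it the log2 fold change was 1.17 ± 0.09 (adjusted p = 0.00284). MYZAP, a protein of adherens junctions, rose from 14.2 to 29.5 CPM over the day 13 libraries to 51.7 to 78.7 CPM over those of day 16 (1.38 ± 0.21, adjusted p = 0.0377). With 10 libraries these calls held in 3, 1 and 2 of the 10 fits that left out 1 library, in the same order of genes. The list of 36 extracellular matrix genes, fitted over the same libraries, held no gene that passed. It includes neither LAMA3 nor the collagen gene COL22A1, which passed as lower and is described below.

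NOTCH4, a Notch receptor best known from endothelium, was at 23.2, 23.9, 24.3, 23.5 and 29.8 CPM on day 13 and at 42.2, 40.9, 49.6, 46.9 and 49.8 CPM on day 16 (0.88 ± 0.10, adjusted p = 0.00911). SH2D3C, a signalling adaptor, went from 11.7 to 13.6 CPM up to 20.2 to 23.6 CPM (0.79 ± 0.09, adjusted p = 0.0126). Both had tight groups with a wide gap, and 5-137 lay inside or above the other day 16 libraries. The summed level of 16 endothelial marker genes overlapped between the days, at 824.1 to 1226 CPM on day 13 and 949 to 1196 CPM on day 16, and none of them passed with 10 libraries.

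FKBP4, a co-chaperone that the progesterone receptor needs for full activity, was at 218, 228, 216, 228 and 221 CPM on day 13 and at 378, 368, 293, 342 and 370 CPM on day 16 (0.65 ± 0.08, adjusted p = 0.0191, a 1.57-fold rise). Library 5-137 was the lowest of day 16 and still above every day 13 library. UTP20, which takes part in ribosomal RNA processing, rose by 0.58 ± 0.08 (adjusted p = 0.0355), and SLC20A1, a sodium-dependent phosphate importer, by 0.50 ± 0.08 (adjusted p = 0.0476). The other 3 risers were of low abundance and are named here after their values were seen: the sodium channel gene SCN11A, at 0.347 to 0.601 CPM on day 13 and 1.81 to 4.81 CPM on day 16 (2.81 ± 0.30, adjusted p = 0.00911), LRRC7 (1.77 ± 0.28, adjusted p = 0.0489) and the unnamed locus LOC104968606.

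Among the genes with a symbol that fell with all 10 libraries, the collagen gene COL22A1 had the largest change after WFDC11, of low abundance. COL22A1 was at 334, 109, 73, 87.5 and 103 CPM on day 13 and at 22.4, 12.4, 5.69, 9.22 and 4.66 CPM on day 16 (-3.70 ± 0.55, adjusted p = 0.0355). Library 4-1314 stood far above the other day 13 libraries, yet even the lowest of them was above every day 16 library. FAM135B went from 13 to 39.3 CPM to 0.472 to 2.7 CPM (-3.33 ± 0.46, adjusted p = 0.0289), with 4-1314 again the highest. CPN1, the catalytic subunit of carboxypeptidase N, which trims peptides such as bradykinin, was at 118, 235, 102, 81.2 and 139 CPM on day 13 and at 34.5, 18.9, 37.9, 22.2 and 28.2 CPM on day 16 (-2.26 ± 0.29, adjusted p = 0.0217).

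ATP1B2, a beta subunit of the sodium-potassium pump, was at 587, 718, 622, 611 and 519 CPM on day 13 and at 308, 224, 291, 248 and 268 CPM on day 16 (-1.20 ± 0.12, adjusted p = 0.00752, the lowest of the 10-library test). Library 5-137 lay within the other 4 day 16 libraries. Its median on days 5 and 7 was 138.9 and 391.8 CPM, so day 13 was the highest of the 4 days. The other named genes that fell were TMEM35 (-1.24 ± 0.17, adjusted p = 0.0287), the protein phosphatase gene PPM1M (-0.91 ± 0.15, adjusted p = 0.0489), RTP3 (-0.87 ± 0.13, adjusted p = 0.0355) and ZNF821, a zinc finger gene (-0.66 ± 0.10, adjusted p = 0.0476). The remaining pair, WFDC11 (-5.16 ± 0.80, adjusted p = 0.0437) and LOC101903015, is named after its values were seen. WFDC11 had no read in 3 day 16 libraries and at most 2.07 CPM on day 13, so its fitted change depends on how zeros are treated.

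**Figure D1:**
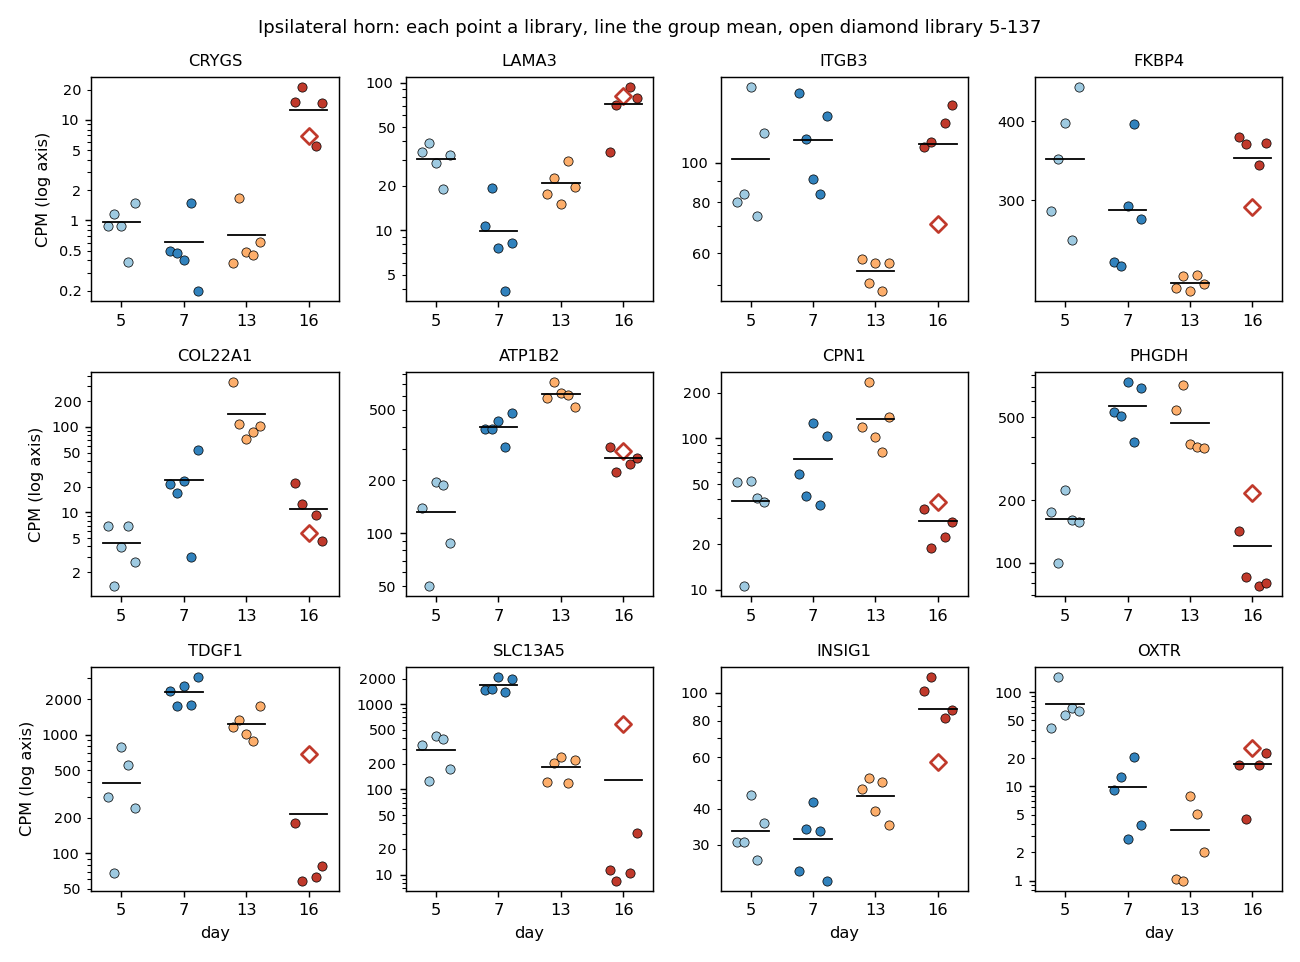
CPM (log axis) of 12 genes in the ipsilateral horn on days 5, 7, 13 and 16. Each point is a library (n = 5 a day), the line is the group mean and the open diamond is day 16 library 5-137, which sits with the other day 16 libraries for CRYGS, LAMA3, COL22A1 and ATP1B2 but far from them, toward days 7 and 13, for TDGF1 and SLC13A5.

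Library 5-137 lay between its own day and earlier days by many genes. Each ipsilateral library was placed on a line from the contralateral means of days 5 and 7 (set to 0) to those of days 13 and 16 (set to 1). Day 13 libraries lay at 0.903 to 1.1, the other 4 of day 16 at 1.06 to 1.17, and 5-137 at 0.709. On a line from contralateral day 13 (0) to day 16 (1), ipsilateral day 13 libraries lay at -0.122 to 0.182, the other day 16 libraries at 0.88 to 1.01, and 5-137 at 0.506. Ipsilateral day 5 libraries lay at 0.337 to 0.809 on that line, so a middle value there is not particular to days between 13 and 16. The contralateral library that carries the same tag lay at 1.06 and 0.736, within the ranges of the other contralateral day 16 libraries (0.926 to 1.06 and 0.533 to 0.886). Over genes, the deviations of these horns from their group means correlated at r = -0.246. The data thus do not bear out that this tag pairs them. More than 4 times the highest of the other 4 day 16 libraries was reached by 78 genes in 5-137, against 0, 11, 14 and 8 genes when 2-068, 3-155, 7-107 and 8-245 were each set against their other 4 (genes tested, at 1 CPM or more). For all 78 of these tested genes the ipsilateral median of day 7 was also above those 4 day 16 libraries, and for 57 that of day 13 was. IBSP, a bone matrix protein that did not reach the filter on low counts, was an exception outside that count, at 15.5 CPM in 5-137, at most 0.229 CPM in the other 4 and a median of 0.222 CPM on day 7. For 3-155, 7-107 and 8-245, each set against its other 4, the day 7 median was above those for 6 of 11, 7 of 14 and 1 of 8 genes. The day 13 median was above them for 7, 8 and 2 of these genes. The same shares over all genes tested, and the counts for day 5, are not given. In the other direction, 5 genes in 5-137 were more than 4 times below the lowest other library, against 10, 6, 15 and 9 genes in the other 4.

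The genes named next were among the largest differences between 5-137 and the other day 16 libraries and were picked by that value. UPK1B, a plaque protein of the bladder lining, was at 170.7 CPM in 5-137, at 0.858 to 1.9 CPM in the other day 16 libraries and at medians of 2.65 CPM on day 13 and 210.1 CPM on day 7. SERPINB12, a protease inhibitor, was at 32.5 CPM against 0 to 0.295 CPM, with 52.8 CPM on day 7. LTF, the iron-binding lactoferrin of secretions and neutrophil granules, was at 282 CPM against 11.1 to 22.5 CPM, with 426.1 CPM on day 7. ANPEP, an aminopeptidase, was at 332.3 CPM against 26.5 to 43.8 CPM, with 1347 CPM on day 7. The levels of 5-137 were thus below the day 7 median in each of these. The day 5 medians were 219.1, 50.3, 174.7 and 299.5 CPM in the same order. Library 5-137 was below them for UPK1B and SERPINB12 and above them for LTF and ANPEP. ASIP, also among the largest differences, was at 32.4 CPM in 5-137 and 2.18 to 2.72 CPM in the other day 16 libraries. Its medians were lower than in 5-137 on both early days, at 10 CPM on day 7 and 1.95 CPM on day 5. The summed level of 12 neutrophil markers, 11 of them in the table, was 293.3 CPM in 5-137 against 26.5 to 35.9 CPM in the other day 16 libraries and 22.7 to 105.1 CPM on day 13, and LTF made up 282 CPM of it.

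**Figure D2:**
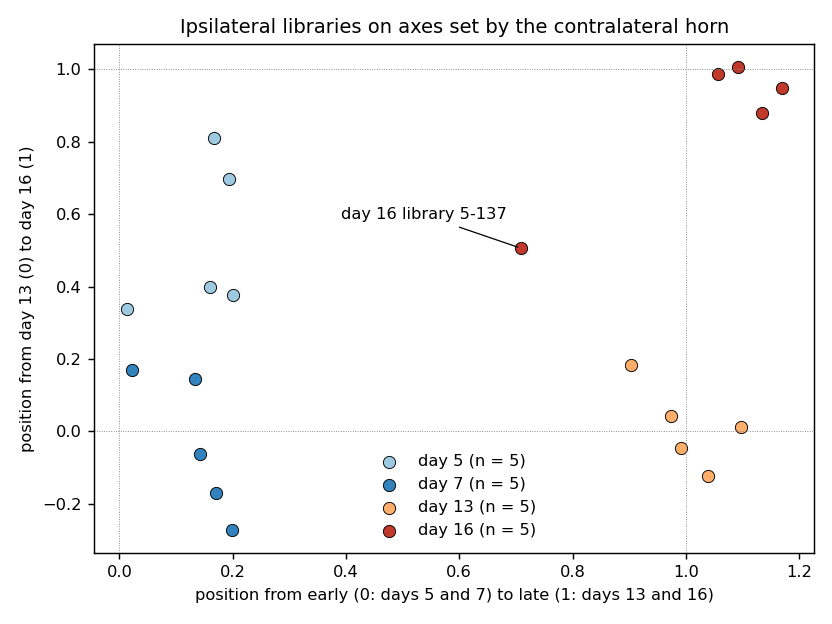
Position of each of the 20 ipsilateral libraries from early to late days (x axis, no unit) and from day 13 to day 16 (y axis, no unit), on lines set by the contralateral group means, one point a library, coloured by day. The 4 other day 16 libraries lie between 0.88 and 1.01 on the y axis, the day 13 libraries at or below 0.182, and 5-137 at 0.506 and at 0.709 on the x axis.

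For the 122 genes that passed without it, 5-137 was within the range of the other 4 day 16 libraries for 23, past that range on the side away from day 13 for 4, in the gap between the days for 46, within the range of the 5 day 13 libraries for 40 and past the day 13 range for 9. Of the 40 genes for which it was within the day 13 range, 7 rose and the others fell. The 9 genes past the day 13 range had all fallen, among them SLC13A5, PRODH, BDH1 and GRIN1. The 122 genes were chosen with 5-137 left out, for a difference between the other 4 day 16 libraries and day 13. That choice by itself favours values of 5-137 nearer to day 13. The same split for another left-out library is not given.

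Of the genes that fell only once 5-137 was left out, SLC13A5, the citrate importer of the cell membrane, was at 124, 206, 241, 120 and 223 CPM on day 13 and at 11.3, 8.51, 584, 10.6 and 31 CPM on day 16, where 584 CPM is 5-137. The other 4 day 16 libraries were below all of day 13 and 5-137 was above all of it, so the log2 fold change was -3.57 ± 0.43 without it (adjusted p = 0.00856) and -0.50 ± 1.07 with it (adjusted p = 0.907). PHGDH, the entry enzyme of serine synthesis from glycolysis, was at 539, 716, 370, 360 and 355 CPM on day 13 and at 143, 85.1, 217, 77.6 and 79.9 CPM on day 16. The days did not overlap even with 5-137 at 217 CPM, and the log2 fold change was -2.28 ± 0.27 without it (adjusted p = 0.00856) and -1.96 ± 0.33 with it (adjusted p = 0.0574). PSAT1, the next enzyme of that pathway, was at 93.1 to 280 CPM on day 13, at 241 CPM in 5-137 and at 26.4 to 44.1 CPM in the other 4 (-2.25 ± 0.30, adjusted p = 0.0143, without it).

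PRODH and OGDH, enzymes of proline breakdown and of the citric acid cycle, and TXNRD1, which reduces thioredoxin, are named here after their values were seen. PRODH was at 34.4 to 56.2 CPM on day 13, at 118 CPM in 5-137 and at 11.5 to 18.3 CPM in the other 4 (-1.62 ± 0.20, adjusted p = 0.00856, without 5-137). OGDH fell by 1.04 ± 0.16 (adjusted p = 0.0284) and TXNRD1 by 1.59 ± 0.19 (adjusted p = 0.00856) on the log2 scale without 5-137. With it their adjusted p was 0.884, 0.357 and 0.336. With 5-137 and 1 further library left out, the calls of PRODH, OGDH and TXNRD1 held in 8, 3 and 8 of 9 fits. The ipsilateral medians on day 7 were 354, 1320 and 742 CPM, above both later days.

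TDGF1, a membrane-anchored co-receptor for Nodal, was one of the most abundant genes to fall. It was at 1160, 1330, 1010, 886 and 1740 CPM on day 13 and at 178, 58.7, 686, 63.3 and 77.6 CPM on day 16. All day 16 libraries, 5-137 with 686 CPM included, were below all of day 13. The log2 fold change was -3.70 ± 0.38 without 5-137 (adjusted p = 0.00515, a level 0.0769 times that of day 13) and -2.52 ± 0.66 with it (adjusted p = 0.151). LRAT, which esterifies retinol, was at 124 to 221 CPM on day 13, at 109 CPM in 5-137 and at 25 to 54.7 CPM in the other 4 (-2.17 ± 0.26 without it, adjusted p = 0.00856, and -1.72 ± 0.36 with it, adjusted p = 0.0841). WNT11, a secreted WNT ligand, was at 24.8 to 35.9 CPM, at 24.5 CPM in 5-137 and at 8.16 to 12.3 CPM in the other 4 (-1.45 ± 0.16 without it, adjusted p = 0.00634).

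AFMID, an enzyme of tryptophan breakdown, ADCYAP1R1, the receptor of the peptide PACAP, SEMA3E, a secreted semaphorin, and TRIM9, a ubiquitin ligase, fell without 5-137 by 2.40, 3.35, 2.73 and 2.65 on the log2 scale (adjusted p = 0.0474, 0.0472, 0.0223 and 0.0488). OR9Q2, PRG3, SPRY3 and PDZK1IP1 fell by 3.88, 3.61, 2.34 and 2.19 (adjusted p = 0.0436, 0.0256, 0.0315 and 0.0304). With 10 libraries none of these 8 genes passed (adjusted p from 0.0595 to 0.32). Without 5-137 and 1 further library, the calls of AFMID, ADCYAP1R1, SEMA3E and TRIM9 held in 2, 1, 7 and 1 of 9 fits, and those of OR9Q2, PRG3, SPRY3 and PDZK1IP1 in 2, 3, 4 and 4. The table holds a separate entry PRG3-2, and how reads were divided between it and PRG3 is not stated, so the values of PRG3 are uncertain.

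Among the genes that rose only without 5-137, CYP24A1, which inactivates vitamin D, was at 1.13, 3.21, 0.416, 0.668 and 1.9 CPM on day 13 and at 15.2, 11, 5.18, 6.39 and 16.6 CPM on day 16. No day 16 library, 5-137 with 5.18 CPM included, was as low as a day 13 library, and the log2 fold change was 3.07 ± 0.53 without it (adjusted p = 0.0384) and 2.89 ± 0.54 with it (adjusted p = 0.0649). CA2, a carbonic anhydrase, was at 3.92 to 18.4 CPM on day 13, at 22.3 CPM in 5-137 and at 60 to 115 CPM in the other 4 (2.63 ± 0.37, adjusted p = 0.0182, without it). With 5-137 and 1 further library left out, the calls of CYP24A1 and CA2 held in 3 and 7 of 9 fits. INSIG1, which restrains cholesterol synthesis when sterols are plentiful and is itself a target of the sterol-responsive factors, was at 46.9, 50.8, 39.4, 49.2 and 35.1 CPM on day 13 and at 101, 113, 57.7, 81.6 and 87.1 CPM on day 16 (1.11 ± 0.14, adjusted p = 0.00856, without 5-137, and 0.99 ± 0.17, adjusted p = 0.0595, with it).

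HMGB3, a chromatin protein, rose by 1.12 ± 0.11 without 5-137 (adjusted p = 0.00515), from 24.1 to 33.9 CPM to 62.2 to 75.1 CPM, with 5-137 at 39.1 CPM. FAM167A, TRABD2B, TUBA4A, KIAA1324, KIF17, TNFSF9 and CSPG5 rose by 1.09 to 1.75 on the log2 scale without it (adjusted p from 0.0227 to 0.0482). With 10 libraries their adjusted p ran from 0.0586 to 0.108. All 7 had the same sign in both fits. Without 5-137 and 1 further library, their calls held in 2, 1, 2, 2, 1, 0 and 4 of 9 fits, in the order named, so TNFSF9 passed in none, while that of HMGB3 held in 9.

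**Figure D3:**
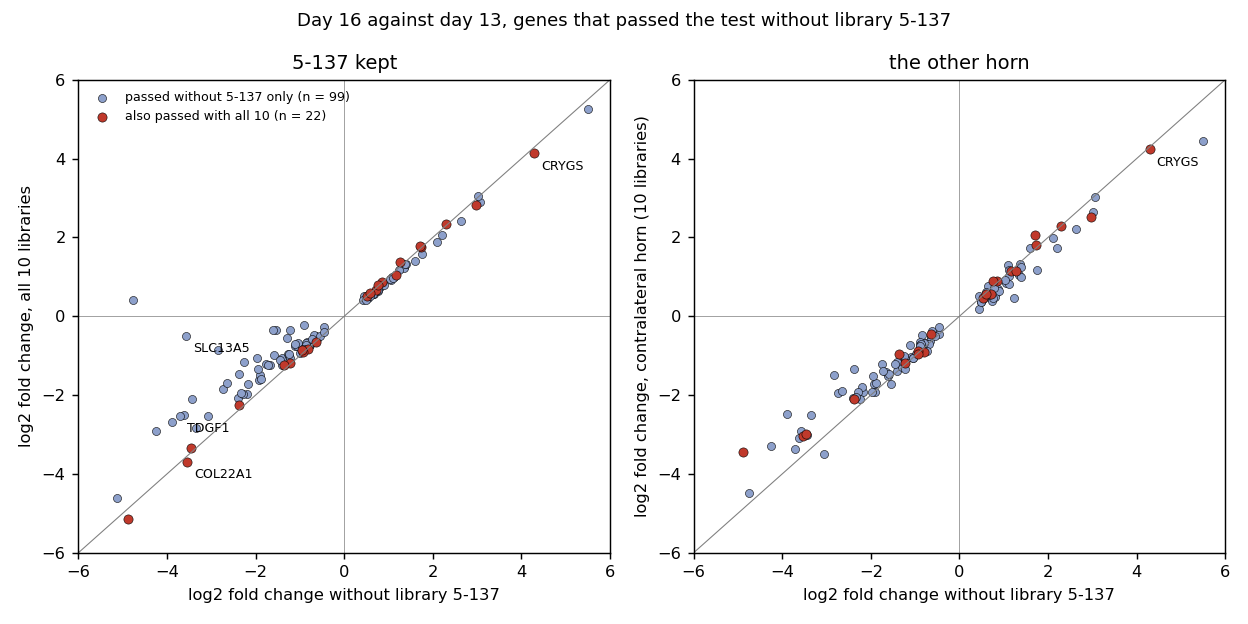
Log2 fold changes, day 16 over day 13, of the genes that passed without library 5-137 (x axis in both panels) against the same with all 10 libraries (left, 121 genes tested) and in the contralateral horn (right, 120 genes tested). Points are genes, red where they passed with all 10 libraries and the diagonal marks equal values. CRYGS and COL22A1 lie near the diagonal on the left, while SLC13A5 (-3.57 without and -0.50 with the library) and TDGF1 lie above it.

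The oxytocin and prostaglandin genes of the luteolytic pathway gave 1 call out of 19 tested, and only without 5-137. OXTR, the oxytocin receptor, was at 1.05, 1, 7.94, 5.07 and 2.04 CPM on day 13 and at 17.1, 4.52, 25.3, 17 and 22.5 CPM on day 16. Library 3-155 lay within the day 13 range and the other 4 of day 16, 5-137 included, lay above it. The log2 fold change of 2.33 ± 0.61 did not pass (adjusted p = 0.151, and 0.173 without 5-137). In the contralateral horn it was 2.70 (adjusted p = 0.0238). AKR1B1, which makes prostaglandin F in bovine endometrium, was at 547, 534, 549, 622 and 564 CPM on day 13 and at 369, 251, 378, 290 and 388 CPM on day 16, without overlap (-0.80 ± 0.13, adjusted p = 0.0324, without 5-137, and -0.75 ± 0.13, adjusted p = 0.0574, with it). With 5-137 and 1 further library left out, the AKR1B1 call held in 3 of 9 fits. PTGS2, the inducible cyclooxygenase, overlapped at 68.9 to 147 CPM and 59.9 to 160 CPM (-0.17 ± 0.27, adjusted p = 0.867).

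Of 23 steroid receptors and co-regulators, FKBP4 alone passed, in both fits. PGR, the progesterone receptor, was at 3.14 to 5.13 CPM on day 13 and at 4.11 to 6.6 CPM on day 16 (0.51 ± 0.20, adjusted p = 0.332), and ESR1, the estrogen receptor alpha, at 8.37 to 14.6 CPM and 8.35 to 12.1 CPM (-0.11 ± 0.18, adjusted p = 0.866). Of 30 uterine secreted proteins, CRYGS passed with 10 libraries and TDGF1 joined it without 5-137. SERPINA14, the uterine milk protein, ranged from 5.34 to 63.2 CPM on day 13 and from 7.16 to 70.1 CPM on day 16, and IGFBP1, a binding protein of insulin-like growth factors, from 51.7 to 343 CPM and from 101 to 333 CPM. Neither passed (adjusted p = 0.893 and 0.991), and both days spanned similar ranges. FOXA2, a transcription factor of the glands, was at 12.8 to 31.5 CPM and 19.8 to 29.5 CPM (adjusted p = 0.942).

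No interferon-stimulated gene passed, in either fit. Of 36 tested, 35 had a negative log2 fold change and 30 were lower at an unadjusted p below 0.05 (28 without 5-137), with a median of -0.90. Over all genes tested, 9347 of 18745 were negative, 6.34% were lower at that level (7.21% without 5-137) and the median was 0.00. DESeq2 passed 13 of the 36, all lower, and 9 without 5-137. When the other ipsilateral days were added to the fit, 2 of 36 were lower at the unadjusted level, with the same median of -0.90. ISG15, a ubiquitin-like modifier, was at 51.1, 12.4, 11.9, 61.1 and 8.38 CPM on day 13 and at 8.5, 9.8, 4.17, 5.18 and 4.23 CPM on day 16 (-2.19 ± 0.57, adjusted p = 0.15). Libraries 4-1314 and 6-203 were high and 8-275 was level with day 16. IFI6 followed the same libraries, at 433, 296, 145, 775 and 124 CPM against 155, 162, 68.1, 87.6 and 96.2 CPM (-1.65 ± 0.48, adjusted p = 0.185), and MX1 had 426 and 538 CPM in these 2 libraries and 95.1 to 188 CPM in the other 3 of day 13.

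Summed over the list, day 13 libraries had 4380, 2563, 1997, 4736 and 1872 CPM and day 16 libraries 2008, 2180, 1600, 1610 and 1772 CPM, so the days overlapped. Without 4-1314 the number lower at the unadjusted level was 24 and the median -0.74, and without 6-203 it was 23 with a median of -0.74. With 5-137 also left out, the number went from 28 to 16 and 15 without these 2 libraries, and to 17 and 16 without day 16 libraries 7-107 and 8-245. HERC5, a ligase for ISG15, came nearest to the threshold, at 42.3 to 80.2 CPM against 26.8 to 34.4 CPM without overlap (-0.94 ± 0.17, adjusted p = 0.0624).

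Among genes of cholesterol synthesis and uptake none passed with 10 libraries. Of 23 tested, 18 had a positive log2 fold change, 9 were higher and 1 lower at an unadjusted p below 0.05, and the median was 0.39. Over all genes tested, 9398 of 18745 were positive and 5.97% were higher at that level (6.6% without 5-137). Without 5-137 there were 19 positive and 13 higher at that level, with a median of 0.43, and INSIG1 passed. MVD, an enzyme of the mevalonate pathway, was at 15.3 to 22.1 CPM on day 13 and 21.2 to 37.9 CPM on day 16 (0.76 ± 0.17 without 5-137, adjusted p = 0.0766). SQLE, which commits squalene to sterols, was at 61.6 to 82.2 CPM and 66.6 to 172 CPM, with 5-137 the lowest of day 16 (0.77 ± 0.20 without it, adjusted p = 0.119). Without library 2-068, high for both genes, the list's median was 0.23 over 9 libraries, and without 3-155, high for both as well, 6 members were higher at the unadjusted level.

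Among 25 genes of lipid and triglyceride metabolism none passed, and the median was -0.12. DGAT2, which completes triglycerides, was at 64.4, 69.5, 78.2, 147 and 29.8 CPM on day 13 and at 23.9, 19.4, 18.5, 16.1 and 7.55 CPM on day 16, without overlap (-2.19 ± 0.40, adjusted p = 0.0604). SCD, the desaturase of fatty acids, went the other way, at 60 to 89.2 CPM against 99.6 to 178 CPM, also without overlap (0.95 ± 0.16, adjusted p = 0.0583). Of 26 nutrient transporters, SLC13A5 and SLC7A4 fell without 5-137 and none passed with it. With 5-137 and 1 further library left out, these calls held in 9 and 1 of 9 fits. SLC2A1, a glucose transporter, was at 89.7 to 186 CPM on day 13 and at 208 to 444 CPM on day 16 (1.13 ± 0.24, adjusted p = 0.0862). Of 18 genes of retinoid metabolism, LRAT fell without 5-137. CYP26A1, which degrades retinoic acid, was at 152 to 249 CPM on day 13 and 18.5 to 103 CPM on day 16 (-2.06 ± 0.39, adjusted p = 0.0673) and at medians of 0.418 and 0.562 CPM on days 5 and 7.

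Markers of motile cilia had a positive log2 fold change in 16 of 16 tested, with a median of 0.56 (0.67 without 5-137). None passed, and 5 were higher at an unadjusted p below 0.05 (9 without 5-137), beside 5.97% of all genes tested (6.6%). FOXJ1, the transcription factor that sets up motile cilia, was at 39.3, 38.5, 28.3, 19.5 and 34.6 CPM on day 13 and at 70.6, 54.5, 35.5, 28.7 and 102 CPM on day 16 (0.87 ± 0.33, adjusted p = 0.315). Libraries 8-245 and 2-068 were high, while 7-107 and 5-137 lay within the day 13 range. The summed level of the cilia markers showed the same order, at 290.1 to 522.2 CPM on day 13 and 771.5, 648.1, 449, 347.8 and 971.3 CPM on day 16. The median was 0.34 without 8-245, with 2 members higher at the unadjusted level, and 0.73 without 7-107, with 13. Without 2-068 and 6-203 there were 3 and 2 such members.

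Of 25 genes of the heat shock and unfolded protein response, 10 were higher and none lower at an unadjusted p below 0.05, beside 5.97% higher and 6.34% lower over all genes tested, with a median of 0.25 and no call. DESeq2 passed 5. HSPH1, a cytosolic chaperone, was at 83 to 121 CPM on day 13 and 119 to 234 CPM on day 16 (0.79 ± 0.18, adjusted p = 0.103), and HSP90AB1, which holds steroid receptors together with FKBP4, at 871 to 972 CPM and 1025 to 1241 CPM without overlap (0.35 ± 0.08, adjusted p = 0.0989).

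The median of mitosis and cell cycle genes depended on 1 library. With 10 libraries 23 of 30 were positive and the median was 0.31, and without 5-137 8 of 30 were positive and the median was -0.16. None passed in either fit. CCNB1, a mitotic cyclin, was lower in both without passing, at 142 to 354 CPM on day 13 and 68.5 to 159 CPM on day 16 (-1.02 ± 0.29, adjusted p = 0.18). Over all 31 lists, 2 held a gene that passed with 10 libraries and 8 without 5-137. No member of the lists for stroma, smooth muscle, endothelium, gland, cilia, erythrocytes or the 7 immune, mast cell, platelet and nerve lists passed in either fit, and of the epithelial markers CLDN7, a tight junction protein, fell without 5-137 (-0.66 ± 0.11, adjusted p = 0.0298). With 5-137 and 1 further library left out, the CLDN7 call held in 3 of 9 fits.

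**Figure D4:**
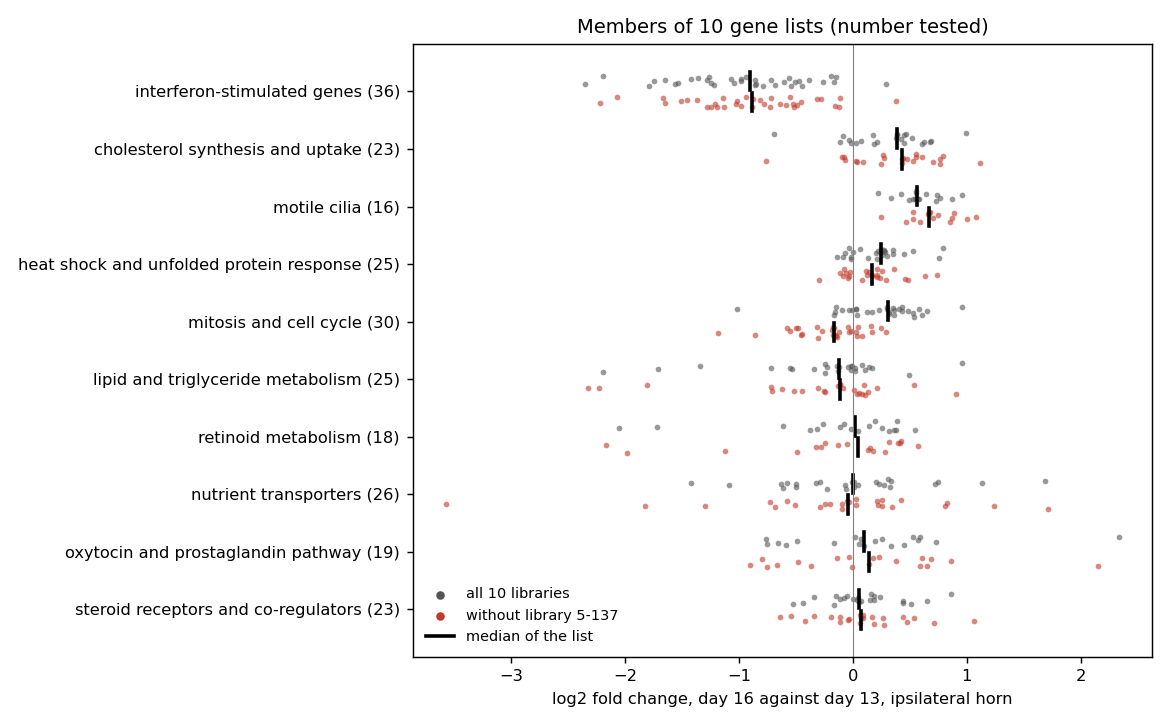
Log2 fold changes of the members of 10 gene lists, day 16 over day 13 in the ipsilateral horn (x axis), with all 10 libraries in grey and without library 5-137 in red. Each point is a gene, the bar is the list's median and the number tested stands in brackets. The median of interferon-stimulated genes is near -0.9 in both, and that of mitosis and cell cycle genes moves from 0.31 to -0.16.

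The contralateral libraries of the same days, which carry the same tags as the ipsilateral ones, gave 59 genes that rose (0.317%) and 157 that fell (0.843%) of 18633. All 22 ipsilateral calls had the same sign there and 16 passed. Of the 122 genes that passed without 5-137, 120 were tested there, 120 had the same sign and 69 passed, which is 31.9% of the 216 contralateral calls. Both horns were collected from the heifers of each day, so the shared signs are no independent replication. The same-sign share over all genes tested is not given. CRYGS changed by 4.23 on the log2 scale in that horn (adjusted p = 0.0254), COL22A1 by -3.03 (adjusted p = 0.00797), TDGF1 by -3.37 (adjusted p = 0.00101), SLC13A5 by -2.91 (adjusted p = 0.00609) and PHGDH by -1.91 (adjusted p = 0.00128). The mitochondrial share was also lower on day 16 there, at 0.263% to 0.578% on day 13 and 0.154% to 0.2% on day 16. The test of the difference itself, the ipsilateral change minus the contralateral change, passed 0 of 19513 genes with all 20 libraries (0%), with 69 (0.354%) at an unadjusted p below 0.05, and 0 of 19702 without ipsilateral 5-137, with 77 (0.391%). DESeq2 passed 0 and 1, LOC104970370. In edgeR the share of genes below an unadjusted p of 0.05 was far under the 0.05 expected with no difference. Its p-values were thus conservative, in a fit without a block for heifer, and the reason was not tested. A change confined to the ipsilateral horn was not detected by this test at this number of animals, which does not show that the horns changed alike.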

How the data were processed

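The deposited values are raw read counts for each gene, used as they stand. Per the submitters' processing notes the authors used FastQC, HISAT2 and featureCounts with the build UMD3.1, with no versions given there. Per the labels' protocols the libraries were stranded mRNA libraries from endometrium. The row of the mitochondrial genome entered neither library sizes nor tests, which leaves 32671 genes.

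Days 13 and 16 of the ipsilateral horn were compared with edgeR 4.0.16 in R 4.3.3 (TMM factors, filterByExpr, glmQLFit and glmQLFTest, Benjamini-Hochberg adjusted p below 0.05 over all genes tested), on these 10 libraries and on 9 without 5-137. No block was used, since the days come from different heifers. The standard error of a log2 fold change is its size divided by the square root of the F statistic. CPM use 1 set of TMM factors over all 40 libraries. Positions between days are projections of log2(CPM+1). The difference between horns used the 20 libraries of days 13 and 16. The test was checked on simulated counts.

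The comparison, its left-out library, the 31 gene lists and the rules below were chosen with earlier results of these data known. Named genes passed, averaged at least 2 on the log2 CPM scale and did not overlap between days (15 each way without 5-137, 10 each way with it), or were the up to 4 lowest p of a list, or stood on a short list of uterine genes. Lists have no test, only counts and medians. Alternatives were DESeq2 1.42.0, limma-voom (limma 3.58.1), RLE factors, no filter, a robust prior, more libraries in the fit, a replicate block and leaving out each library. A p-value sets the difference between days against the spread between animals as labelled. How reads shared by similar genes were counted is not stated. Sequences were not analysed here.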

Additional observations from a re-analysis of the deposited data

Results flagged for a closer look

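Values that stand apart from the other 4 libraries of their day were sought in 184 sets of 5. The measure was the gap to the nearest library as a share of the range. The sets were a fixed list of genes, most of them named in the text, and 5 library measures, on each day. Several named genes, UPK1B, SERPINB12, LTF, ANPEP, ASIP and IBSP among them, were not on that list. Chance gives about 1 in 20 for independent, normally distributed values, which these need not be. In these sets 24 were found, 14 of them in day 16 library 5-137.

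In 5-137 the level was the highest of day 16 and apart for TDGF1 (685.8 CPM), SLC13A5 (584.2 CPM), PSAT1 (241.2 CPM), SEMA3E (13.71 CPM), PRG3 (4.771 CPM), OR9Q2 (4.167 CPM), TRIM9 (33.78 CPM), WNT11 (24.52 CPM), SLC7A4 (33.24 CPM), PRODH (117.8 CPM), OGDH (580.9 CPM) and TXNRD1 (303.6 CPM). Its positions, 0.7091 from early to late days and 0.5057 from day 13 to day 16, were the lowest of day 16 and apart. All 12 of these genes fell without 5-137, and they were named partly for that, so their number is no independent count.

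Of the other day 16 libraries, UTP20 was apart in 3-155 (66.68 CPM, highest), SERPINA14 in 3-155 (70.07 CPM, highest) and WFDC11 in 2-068 (0.1181 CPM, highest). On day 13, COL22A1 (334.3 CPM) and FAM135B (39.3 CPM) were apart and highest in 4-1314, CRYGS (1.651 CPM) and WNT11 (35.91 CPM) in 5-140, NOTCH4 (29.76 CPM) in 8-275 and PLIN2 (110.4 CPM), a lipid droplet protein, in 6-203, and HMGB3 (24.1 CPM) was apart and lowest in 5-167. No gene was found to change differently in the horns by the test of that difference.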

How the results depend on the processing

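With 10 libraries (12 genes higher, 10 lower), DESeq2 gave 305 higher and 295 lower, limma-voom 6 higher, all ipsilateral libraries in the fit 38 and 50, and all libraries of the series 92 and 116. RLE factors, no filter and a robust prior stayed within 1.5 times. Leaving out 1 library gave 4 to 48 higher and 1 to 74 lower. Without 5-137 (48 and 74), DESeq2 gave 398 and 485, limma-voom 43 lower and all libraries of the series 129 and 206, and leaving out 1 more gave 8 to 46 higher and 10 to 88 lower. A fit with more libraries borrows its spread from other days.

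Single genes were followed over the alternatives for the same fixed list of genes, which leaves out several named ones. Of these, 5 that never passed changed sign when 1 library was left out: IGFBP1 (-0.333 to 0.285 with 10 libraries, -0.371 to 0.333 without 5-137), FOXA2 (-0.0763 to 0.228 and -0.0593 to 0.243), SERPINA14 (-1.4 to 0.0874 and -1.23 to 0.323), ESR1 (-0.191 to 0.0211 with 10 libraries) and PTGS2 (-0.295 to 0.115 without 5-137). IGFBP1 was also 0.199 with limma-voom on 10 libraries. No gene of that list that passed changed sign under any alternative run. The position of 5-137 from early to late days was 0.639 over the 2000 most variable genes.

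For the difference between horns, the replicate block by tag passed 0 genes with and without ipsilateral 5-137. DESeq2 passed 1 without it, and leaving out each library gave 0 to 0. Horns with the same tag deviated together from their group means, at r over 0.1, for 2 of the 10 tags (r from -0.336 to 0.601), so the block pairs libraries by a shared tag that the data do not bear out. In all, 2 of the 10 ipsilateral libraries were closest to the contralateral library of their own tag. No paired analysis was possible for day 16 against day 13 because the days come from different heifers.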
